A study of Mus musculus with 31 samples.

Results

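The comparison described here set hematopoietic stem cells of the mouse fetal liver (FL HSCs) with 1 inactivated copy of Ep300 against those of wild-type (WT) littermates. Its members, chosen by the genotype on their labels, were 8 of the 31 arrays of the series: 2 pools of Ep300+/+ and 2 pools of Ep300+/- cells, each read on 2 arrays. Each pool combined the livers of 15 C57BL/6 embryos at 14.5 days post coitus, whose cells had been viably frozen and thawed and were then sorted as Sca-1+, Lin-, AA4.1+ and c-Kit++. From each, 12 ng of total RNA was amplified with the Ovation kit, labelled with biotin and read on the Affymetrix Mouse 430 2.0 array. The Ep300+/- mice were constitutive heterozygotes fully back-crossed to C57BL/6, so the allele was inactivated in the stem cells, in the other cells of the liver and in the rest of the embryo alike. No other allele or treatment separated the groups. Pools of WT and Ep300+/- cells with the same number were compared as a pair, which left 2 pairs. The error of a difference was estimated jointly with the pairs of the experiment on Crebbp+/- FL HSCs and their WT littermates. Those pools also held 15 C57BL/6 embryos each at 14.5 days post coitus.

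Ep300 encodes p300, a histone acetyltransferase and transcriptional coactivator. Together with its close paralog CREBBP it is brought to enhancers and promoters by sequence-specific factors, where it acetylates histones and other proteins and bridges those factors to the transcription machinery. Loss of either protein disturbs blood formation, and the comparison addressed whether 1 copy of Ep300 alters the transcripts of stem cells, intronic sequence included, as a single copy of Crebbp was examined for.

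A value is a log2 intensity that the authors computed with GCRMA, and a difference is Ep300+/- minus WT on that scale. Of 45037 probe sets other than controls, 12885 reached the minimum of the methods, an intensity of 100 (log2 of 6.64), in at least 1 of the 4 pools and were tested. They covered 7392 genes. Between 12042 and 12363 probe sets reached that minimum on each array. There is no read depth behind an intensity, and precision was limited by the number of pools. In bulk samples like these, fewer cells of a type and less RNA per cell cannot be told apart.

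The sorted cells carried transcripts of stem and progenitor cells. Cd93, which encodes the AA4.1 antigen, had levels of 12.36 and 12.30 in the WT pools and 12.37 and 12.33 in the Ep300+/- pools, and Kit, the stem cell factor receptor, had 9.63 and 9.60 against 9.99 and 9.74. Mecom and Hoxa9, transcription factors of stem cells, lay between 11.56 and 11.96 in all pools. Ly6a, which encodes Sca-1, was matched to no probe set of its own. The defining markers of macrophages (C1qa, C1qb, C1qc, Adgre1 and Cd5l) and of endothelium and stroma (Cdh5, Kdr, Col1a1, Col3a1 and Lyve1) had levels of at most 2.72 in every pool. Other genes of the wider lists of these cells were higher. Among them, Csf1r of the macrophage list lay at 9.63 to 9.76 and Emcn of the endothelial and stromal list at 8.29 to 8.59. Of the lymphoid markers, Cd3e and Dntt also had at most 2.72, Rag1 lay at 3.31 to 3.50 and Il7r, the interleukin 7 receptor, at 5.70 to 6.56, just under the minimum. Of the granulocyte and monocyte markers, the granule proteins Mpo and Prtn3 reached 12.83 and 11.11 and the receptor Csf3r 7.13, while the protease Elane lay at 4.02 to 4.28 and S100a8, a calcium-binding protein, at 3.21 to 4.63.

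The arrays of a pool were not interchangeable, although the methods describe them as technical replicates. Alb, the plasma carrier albumin, had a level of 2.76 on the first and 7.36 on the second array of WT pool 1, and 2.86 and 7.09 on those of Ep300+/- pool 1. Hbb-y, an embryonic globin, went from 2.47 to 8.33 and from 2.41 to 8.30 in the same pools. Apoa1, an apolipoprotein, went from 2.48 to 7.59 and from 2.51 to 6.63, and Ttr, the thyroxine carrier, from 2.39 to 6.43 and from 2.33 to 6.43. These 4 transcripts of hepatocytes and embryonic red cells were thus present on the second arrays of both pools numbered 1 and near the floor on their first arrays. Other markers of liver and red cells stayed low on the second arrays of WT and Ep300+/- pool 1. Ahsg had 2.35 and 2.37 there, Hba-a1 2.28 and 2.27, Alas2 2.15 and 2.15, and Slc4a1 3.17 and 3.27. In WT pool 2 the second array was intermediate (5.32 for Alb, 5.65 for Apoa1), and in Ep300+/- pool 2 both arrays were near the floor for Alb (2.79 and 3.03). Afp, alpha-fetoprotein, and Apoa2, another apolipoprotein, did go up on the second array of that pool, from 3.17 to 6.89 and from 3.45 to 4.92. Hbb-y and the contrast between arrays were singled out after the values were seen. By over 8-fold, 11 probe sets were higher on the second array in the pools numbered 1 of both genotypes.

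**Figure D1:**
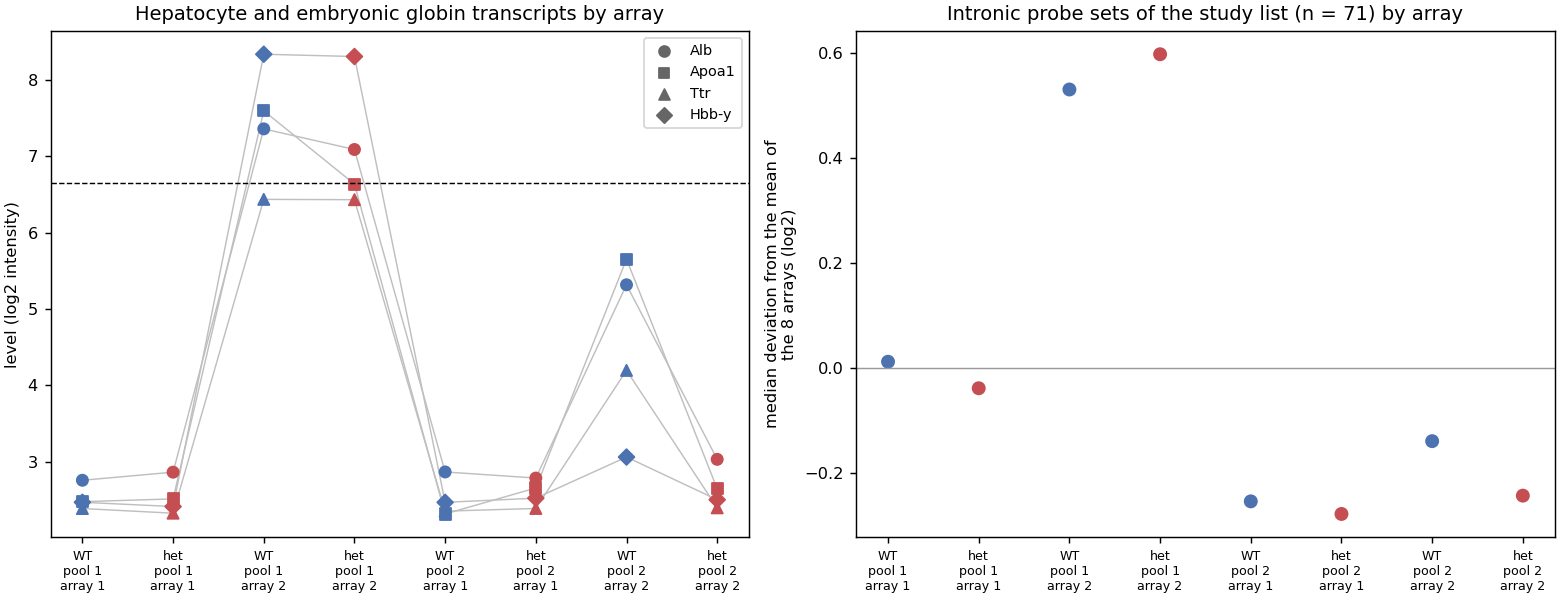
Levels of Alb, Apoa1, Ttr and Hbb-y (left, log2 intensity, dashed line at an intensity of 100) and the median deviation of the 71 intronic probe sets of the study list from their mean over the 8 arrays (right, log2), for each array, ordered by pool, array number and genotype, with WT in blue and Ep300+/- (het) in red. The second arrays of both pools numbered 1 stand above the other arrays in both plots, at 0.53 and 0.60 for the intronic probe sets, whichever the genotype.

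The same grouping held across all tested probe sets. The first array of WT pool 1 correlated best with the first array of Ep300+/- pool 1 (r = 0.987 across 12885 probe sets), and the second arrays of these pools correlated best with each other (r = 0.984), whereas the arrays of 1 pool correlated with r of 0.976 in WT and 0.974 in Ep300+/- pool 1. The points of these correlations share their probe sequences and their normalization, and probe sets are not independent replicates. The difference between the first and the second array of WT pool 1 went along with that of Ep300+/- pool 1 (r = 0.50), and for the pools numbered 2 it did not (r = -0.047). In the experiment on Crebbp+/- FL HSCs, read in the same manner, these correlations were 0.095 and 0.068. The standard deviation (SD) of the difference between arrays of a pool was 0.35 to 0.46, and that between genotypes in a pair, after both arrays were averaged, was 0.225 and 0.256. Between single arrays of the genotypes with the same numbers it was 0.287 and 0.315 in pair 1, less than between the arrays of either pool, and 0.359 and 0.422 in pair 2, where the arrays of the pools differed by 0.35 and 0.464. The second array of Ep300+/- pool 2 stood apart from the other 7: its highest correlation with any of them was 0.973, and 238 probe sets were lower there than on every other array by over 1.5-fold, against 8 to 56 for the others. Many differences of named genes that depend on this array are given with and without it, and a difference given once may also depend on it.

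Ep300 itself had a level of 9.53 and 9.60 in the WT pools and of 9.46 and 9.47 in the Ep300+/- pools, a difference of -0.10 (standard error 0.10, limma adjusted p = 1.00, lower in 2 of 2 pairs). Its pools did not overlap, but the difference was no larger than its error, and on the second arrays alone it was 0.06. The probe set therefore does not check the labels, and where it lies relative to the inactivated part of the gene was not examined here. Crebbp, at its brightest probe set, had 12.09 and 12.18 in WT and 12.12 and 12.03 in Ep300+/- pools, a difference of -0.06 (standard error 0.13). Its other measured probe sets differed by 0.11 (standard error 0.17) and -0.05 (standard error 0.16), and a further one lay below the minimum. The 95% interval ran from -0.36 to 0.16 for Ep300 and from -0.41 to 0.28 for the brightest Crebbp probe set.

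No probe set passed the test in Ep300+/- FL HSCs. limma called 0 of 12885 probe sets (0%), a call being a difference over 1.5-fold whose adjusted p was under 0.05, and its smallest unadjusted p, 0.000542 for Wwox, had an adjusted p of 1.00. Without adjustment, 577 probe sets (4.48%) had a p under 0.05, 290 of them higher (2.25%) and 287 lower (2.23%), and 100 (0.776%) also exceeded 1.5-fold, 54 higher (0.419%) and 46 lower (0.357%). Of all 12885, 134 (1.04%) differed by over 1.5-fold, and differences ran from -1.15 to 1.09 with a median of -0.015. The 2 pairs went the same way in 3135 probe sets that were higher (24.3%) and 3908 that were lower (30.3%). The paired test of the methods was run with their filters on level, fold change and interquartile range. The detection calls that the methods also used were left out. It passed 11 probe sets (0.0854% of the 12885), 5 higher and 6 lower, and 0 after Benjamini-Hochberg adjustment. Only 477 of the 12885 met the filter on range and could pass, and the adjustment covered these. Without that filter, 19 of the 12885 passed.

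The intervals show what size of change the joint fit allowed. Their spread came from the Ep300 and the Crebbp pairs together, so it also holds disagreement between the Crebbp pairs. With the Ep300 pools fitted alone by limma, 7.02% of probe sets had an unadjusted p under 0.05, 446 higher and 458 lower. The 95% interval lay within 1.5-fold in either direction for 9682 probe sets (75.1%), and a bound of it lay at a median distance of 0.32 from the estimate. Among the 8276 probe sets with a mean level of at least 8 this was so for 87.4%, and among the 4609 dimmer ones for 53.05%.

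The difference between genotypes did not repeat between pairs to the extent seen for Crebbp. Across probe sets the Ep300 difference of pair 1 and that of pair 2 correlated with r = 0.098, and that between Crebbp+/- and WT with r = 0.487 over 12544 probe sets. Within a pair, the difference on the first arrays and on the second arrays correlated with r of 0.118 in pair 1 and -0.150 in pair 2 of the Ep300 experiment, against 0.506 and 0.479 in the Crebbp experiment. Over 1.5-fold, 34 probe sets went the same way in both Ep300 pairs (17 higher and 17 lower) and 30 went opposite ways, whereas in the Crebbp experiment 662 went the same way and 46 opposite ways. Both experiments had 2 pairs of 2 pools and 2 arrays per pool, but their arrays were normalized separately.

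**Figure D2:**
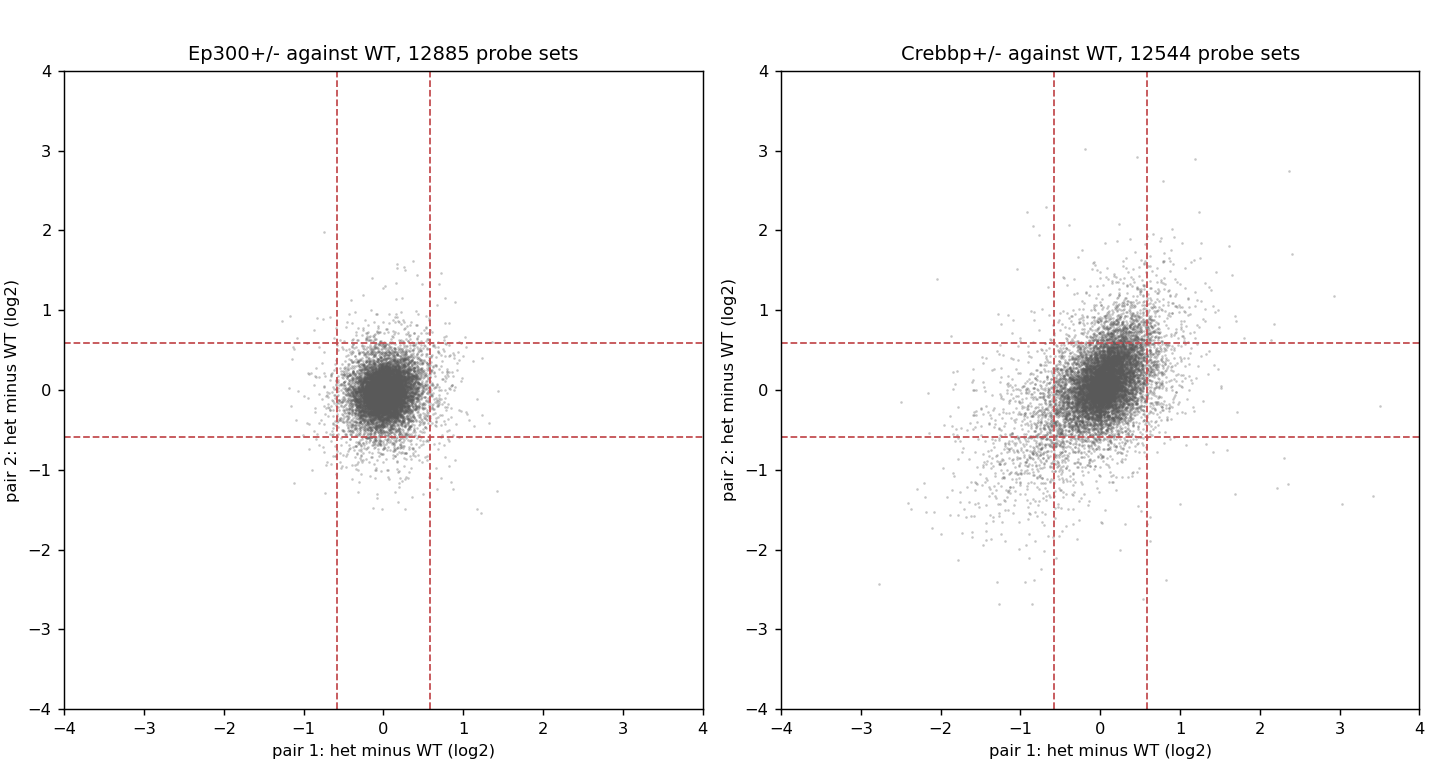
Difference between heterozygous and WT pools in pair 1 (x axis) and pair 2 (y axis), log2, for Ep300 (left, 12885 probe sets) and Crebbp (right, 12544), 1 point per probe set, with dashed lines at 1.5-fold. The Ep300 points form a cloud around 0 with 34 probe sets past 1.5-fold the same way in both pairs, and the Crebbp points extend along the diagonal, with 662.

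Although none was called, the probe sets of 12 genes with the smallest p in each direction are described, because any effect of Ep300 would be sought there first. They were chosen on the contrast itself, so their values carry no test: in 23 of 24 the pools of the genotypes did not overlap (14.1% of all tested probe sets lay higher in this way and 18.7% lower), and in 9 of 24 neither did the 8 arrays (1.26% and 1.06%). In 9 of 24 the mean of 1 genotype lay below the minimum level, where the size of a difference depends on the background.

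**Figure D3:**
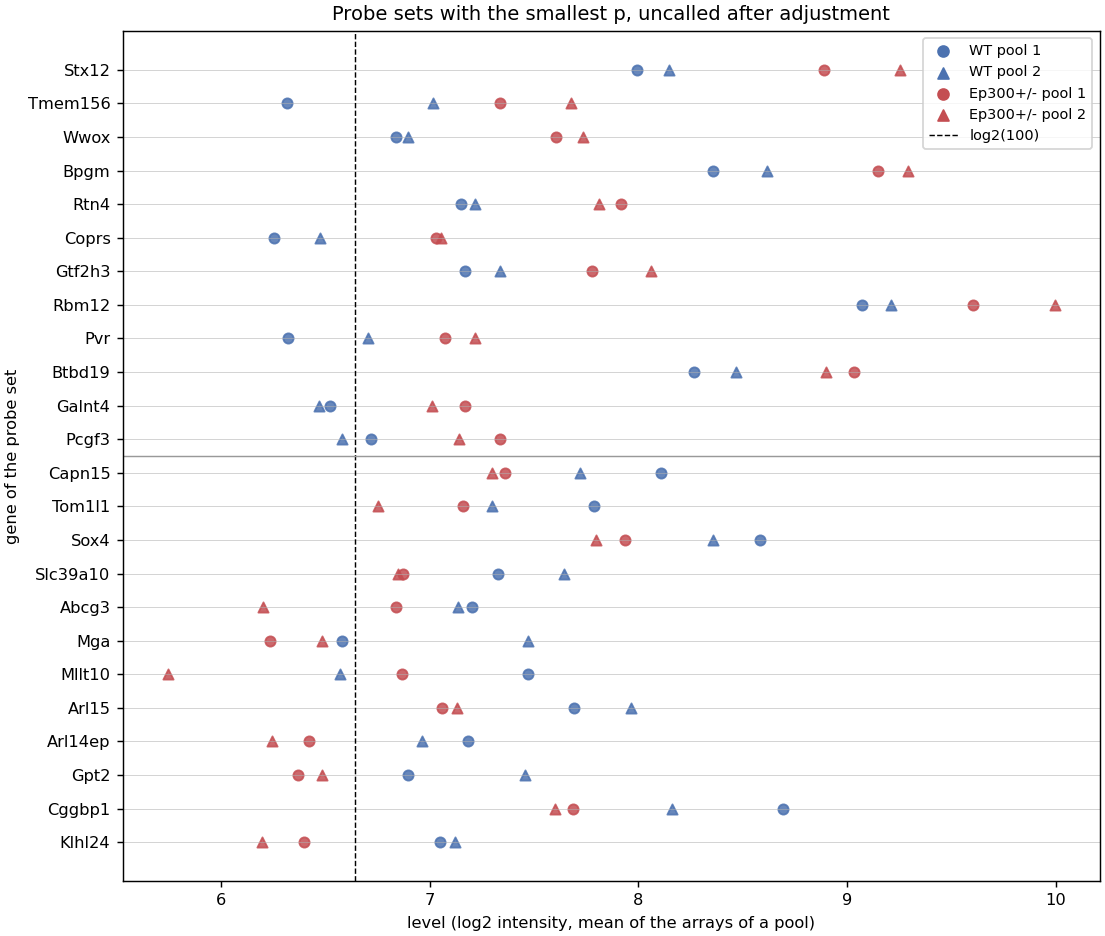
Level (log2 intensity, mean of the arrays of a pool) in the WT pools (blue) and the Ep300+/- pools (red) of the 12 probe sets with the smallest p that were higher and, below the line, the 12 that were lower in Ep300+/- pools; circles are pools numbered 1, triangles those numbered 2, and the dashed line is an intensity of 100. Stx12 shows the widest gap upward (1.00) and Klhl24 the widest downward (-0.79), and only Mllt10 has pools of the genotypes that overlap.

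Among those higher in Ep300+/- cells, Wwox, an oxidoreductase known as a tumor suppressor, had levels of 6.84 and 6.90 in the WT pools and 7.61 and 7.73 in the Ep300+/- pools, a difference of 0.80 (standard error 0.10). Its first and second arrays differed by more within the WT pools (7.25 and 6.43, 7.26 and 6.54) than the Ep300+/- arrays did among themselves (7.45 to 7.83). Bpgm, which makes the 2,3-bisphosphoglycerate of red cells, had 8.36 and 8.62 against 9.15 and 9.29 (0.73, standard error 0.11). Stx12, a SNARE protein of endosomes, had 8.0 and 8.15 against 8.89 and 9.25, the largest difference of these, 1.00 (standard error 0.17). Its other probe set had 9.61 and 9.83 against 9.98 and 10.33, a difference of 0.43 (standard error 0.10). All 8 arrays of each of these 3 probe sets were separated by genotype.

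Gtf2h3, a subunit of the general transcription factor TFIIH, had 7.17 and 7.34 in WT and 7.78 and 8.06 in Ep300+/- pools (0.66, standard error 0.11). Pcgf3, a RING protein of Polycomb repressive complexes, had 6.72 and 6.58 against 7.34 and 7.14 (0.59, standard error 0.11), and at its brighter probe set the difference was 0.01 (standard error 0.16). Coprs, a partner of the arginine methyltransferase PRMT5, differed by 0.68 at this and by 0.69 at its other probe set, and by 0.33 at the first without the array that stood apart. Rbm12, an RNA-binding protein, differed by 0.66 at this probe set and by -0.02 at its other one. The remaining genes were Pvr, a nectin-like adhesion molecule (0.63, and 0.41 at its other probe set), Tmem156 (0.84), Btbd19 (0.60, and 0.34 without that array), Galnt4, which starts O-linked glycans (0.59), and Rtn4, at an intronic probe set described further on.

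Among those lower in Ep300+/- cells, Sox4, a transcription factor of lymphoid and stem cells, had levels of 8.58 and 8.36 in WT and 7.93 and 7.80 in Ep300+/- pools, a difference of -0.60 (standard error 0.10). The groups of arrays did not overlap, from 8.21 to 8.65 in WT and from 7.78 to 8.09 in Ep300+/- cells. A pair of its other probe sets differed by -0.58 and -0.53 (standard error 0.12 each), and its 2 brightest, at mean levels of 12.20 and 9.71, by -0.08 and 0.04 (standard error 0.12 each). The difference of Sox4 was thus seen at its dimmer probe sets. Arl15, a small GTPase, had 7.69 and 7.96 against 7.06 and 7.13 (-0.73, standard error 0.12), and Cggbp1, which binds CGG repeats, had 8.69 and 8.16 against 7.69 and 7.60 (-0.78, standard error 0.14). At the other probe sets of Arl15 and Cggbp1 the differences were -0.05 and -0.07.

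Gpt2, the mitochondrial alanine aminotransferase, had 6.90 and 7.46 in WT and 6.37 and 6.49 in Ep300+/- pools (-0.75, standard error 0.15), a difference that was -0.36 without the array that stood apart, and its other probe sets differed by -0.52 and -0.03. Slc39a10, a zinc importer, differed by -0.63, by -0.33 without that array and by 0.15 at its brighter probe set. Mllt10, a partner of the histone methyltransferase DOT1L, differed by -0.71 (-0.49 without that array) and at its brighter probe set by -0.08. Its levels at the first of these also separated pools numbered 1 (7.47 and 6.87) from those numbered 2 (6.57 and 5.74). Mga, a partner of MAX, differed by -0.67 and at its brighter probe set by -0.05. Klhl24, a substrate adaptor of ubiquitin ligases, differed by -0.79, and by -0.02 and -0.19 at its other probe sets. The last of the 12 were Arl14ep, Abcg3, an ABC transporter, Capn15 and Tom1l1. Arl14ep differed by -0.74, by -0.42 without that array and by 0.07 at its brighter probe set. Abcg3 differed by -0.65, and by -0.22 without that array. Capn15 and Tom1l1 differed by -0.59 each (-0.51 and -0.45 without that array), and Capn15 by -0.27 at its other probe set. Over the genes named here and those of the next paragraph, 17 had further measured probe sets, 23 in all, of which 18 differed in the same direction and 1 of those by over 1.5-fold. They were read on the same arrays, so a shared direction is not independent of the choice of genes. The share over all genes with several probe sets was not counted.

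Of the 11 probe sets that passed the paired test of the methods, 8 had 1 gene symbol. They were Wwox, Bpgm, Pcgf3, Sox4 and Arl14ep, given above, and Cwc25, Pycard and Aoah. Cwc25, a spliceosome factor, had levels of 5.87 and 6.09 in WT and 6.69 and 6.94 in Ep300+/- pools (0.83, standard error 0.11). Pycard, the adaptor of inflammasomes, had 6.72 and 7.16 against 5.83 and 6.15 (-0.95), and -0.57 without the array that stood apart; at its brighter probe set the difference was -0.05. Aoah, which deacylates bacterial lipopolysaccharide, had 6.75 and 6.49 against 5.95 and 5.80 (-0.75). In each of these 3 genes the mean of 1 genotype lay below the minimum level. The study's list of intronic probe sets lower in Crebbp+/- cells held 0 of the 11. With 71 of the 12885 tested probe sets, that list is too short for this count to be read as a result. Whether any of the 11 lies in an intron was not examined here.

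The study's intronic list, probe sets within introns that it selected as lower in Crebbp+/- FL HSCs, went both ways in Ep300+/- FL HSCs. Of its 83 probe sets 71 were measured, 33 higher and 38 lower, with a median difference of -0.02 in Ep300+/- cells and -1.02 in Crebbp+/- cells, beside -0.015 for all probe sets tested. limma called 0. At an unadjusted p under 0.05, 8 were higher and 6 lower, 19.7% of the list against 4.48% of all probe sets. Since the list was chosen for small p in the Crebbp pools, which share the residual of the joint fit, the 4 Ep300 pools were also fitted alone: 8 were higher and 5 lower, 18.3% against 7.02%. The list was dimmer than the rest (median level 7.71 against 8.70), and its differences spread more widely, with an SD of 0.30 against 0.18. The interval excluded a 1.5-fold change in either direction for 39 of 71.

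In the pools numbered 1, the levels of these intronic probe sets differed more between arrays than between genotypes. Their median level was 8.33 on the second arrays of WT pool 1 and of Ep300+/- pool 1 alike, and from 7.48 to 7.84 on the other 6 arrays. Between the arrays of a pool, the second exceeded the first by a median of 0.58 in WT pool 1 (60 of 71 probe sets) and of 0.64 in Ep300+/- pool 1 (58 of 71), by 0.16 in WT pool 2 and by -0.003 in Ep300+/- pool 2. In WT pool 1, 35 of 71 (49.3%) were higher by over 1.5-fold on the second array, against 5.62% of all probe sets. The study's mRNA probe sets that are higher in Crebbp+/- cells went the other way on the same arrays, by a median of -0.35 in WT pool 1 and -0.34 in Ep300+/- pool 1 over 51 measured. Alb, Apoa1, Ttr and Hbb-y, given above, were raised on these second arrays, and their part in the intronic levels was not tested. In the pairs, the median of the intronic list was 0.06 in pair 1 and -0.11 in pair 2, and 29 of 71 (40.8%, against 20.6% of all probe sets) had their lowest value on the array that stood apart; without it the median of both pairs was -0.05. Over 1.5-fold, 1 was lower and 4 were higher in pair 1, and 10 were lower and 4 higher in pair 2, where 5 were lower with the first array of Ep300+/- pool 2 alone. Of all 12885 probe sets, 117 were lower and 191 higher by as much in pair 1 and 314 lower and 177 higher in pair 2. The Crebbp experiment had a contrast between arrays at these intronic probe sets too. There the second array exceeded the first by a median of 0.37 in WT pool 1 (57 of 71), and by -0.14 to 0.03 in the other pools.

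The intronic probe sets of the list with an unadjusted p under 0.05 went in either direction. Rtn4, a reticulon of the endoplasmic reticulum, had intronic levels of 7.15 and 7.22 in WT and 7.92 and 7.81 in Ep300+/- pools, a difference of 0.68 (standard error 0.11), while its mRNA probe sets differed by 0.06 and -0.06. Trip12, a ubiquitin ligase, had intronic levels of 6.43 and 6.27 against 7.47 and 6.81 (0.79, standard error 0.15), and Ogt, the enzyme that adds O-linked N-acetylglucosamine, 7.36 and 6.48 against 7.78 and 7.29 (0.61, standard error 0.14). On the lower side, Ccnd3, a D-type cyclin, had intronic levels of 7.76 and 7.19 in WT and 7.18 and 6.65 in Ep300+/- pools (-0.56, standard error 0.15). Mbtd1, a methyl-lysine reader, differed by -0.56 and by -0.15 without the array that stood apart. Tnik, a kinase of the Wnt pathway, differed by -0.80 and by -0.39 without it. The other lower ones were A230067G21Rik (-0.45, and -0.28 without it), Tcf12, an E protein (-0.45, and -0.65), and Dnmt3b, a DNA methyltransferase (-0.63, and -0.45), and the other higher ones differed by 0.37 to 0.52. Apart from Rtn4, these genes were named after their values were seen. In the Crebbp experiment the probe sets named here differed by -1.70 (Ccnd3) to -0.90 (Tnik). The study selected the list as lower in those same samples, so this direction was set in advance.

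Of the genes that the study followed by PCR, the 7 chosen as follow-up targets or measured at intronic amplicons of their own (Itga4, Msi2, Tcf4, Rbpms, Angpt1, Meis1 and Igf1r) were described at 13 intronic probe sets and at 1 mRNA probe set each. At the intronic ones, 8 were higher and 5 lower in Ep300+/- pools with a median of 0.07, and 1 in each direction had an unadjusted p under 0.05. Tcf4, an E protein, had levels of 6.86 and 6.74 in WT and 6.32 and 5.95 in Ep300+/- pools at 1 of its intronic probe sets, a difference of -0.67 (standard error 0.12, limma adjusted p = 1.00). It was -0.53 without the array that stood apart, and both Ep300+/- pools lay below the minimum level. Single arrays of the genotypes overlapped there, from 5.79 to 7.92 in WT, both of them in pool 1, and from 5.68 to 6.92 in Ep300+/- cells. Its other intronic probe set differed by -0.13 and its mRNA probe set, at 11.55 and 11.71 against 11.58 and 11.56, by -0.07. Meis1, a homeobox factor of stem cells, had 7.61 and 7.21 against 8.18 and 7.50 at an intronic probe set (0.43, standard error 0.14), and differed by 0.12 and -0.11 at its other intronic probe sets and by -0.11 at the mRNA probe set plotted. At a further Meis1 probe set, which the study lists as mRNA lower in Crebbp+/- cells, the Ep300 difference was -0.22 (95% interval -0.59 to 0.14; -0.07 without that array) and the Crebbp difference -1.29.

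Msi2, a translational regulator of stem cells, differed by 0.36, 0.37 (0.23 without the array that stood apart) and -0.06 at its intronic probe sets and by 0.12 at its mRNA probe set (12.60 and 12.56 in WT, 12.71 and 12.69 in Ep300+/- pools). Rbpms, an RNA-binding protein, differed by 0.48 and 0.07 at introns and by 0.19 at its mRNA. Itga4, the integrin alpha 4 chain, differed by 0.04 and by 0.004, Igf1r, the receptor of insulin-like growth factor, by -0.05 and 0.04, and Angpt1, the ligand of TEK, by 0.11 at its intron and by -0.61 at its mRNA probe set. The last value rested on the second array of Ep300+/- pool 2 and was -0.27 without it. At each of the 13 intronic probe sets the Crebbp difference (median -1.26) lay below the 95% interval of the Ep300 difference. The paper states that it picked follow-up targets by their reported roles in stem cells or development. Several of these probe sets also stand in its intronic list, which was chosen on the Crebbp samples. The comparison leaves out the error of the Crebbp values. The test of the difference between the effects, given further on, called none of the 13. The study also followed Mllt10, given above, and Ly6e, Dhcr7 and Pole by PCR, whose probe sets differed by -0.07, 0.11 and -0.05 (standard errors 0.10, 0.12 and 0.12), and 1700081L11Rik, now annotated as Kansl1, with 0.19 and -0.05.

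**Figure D4:**
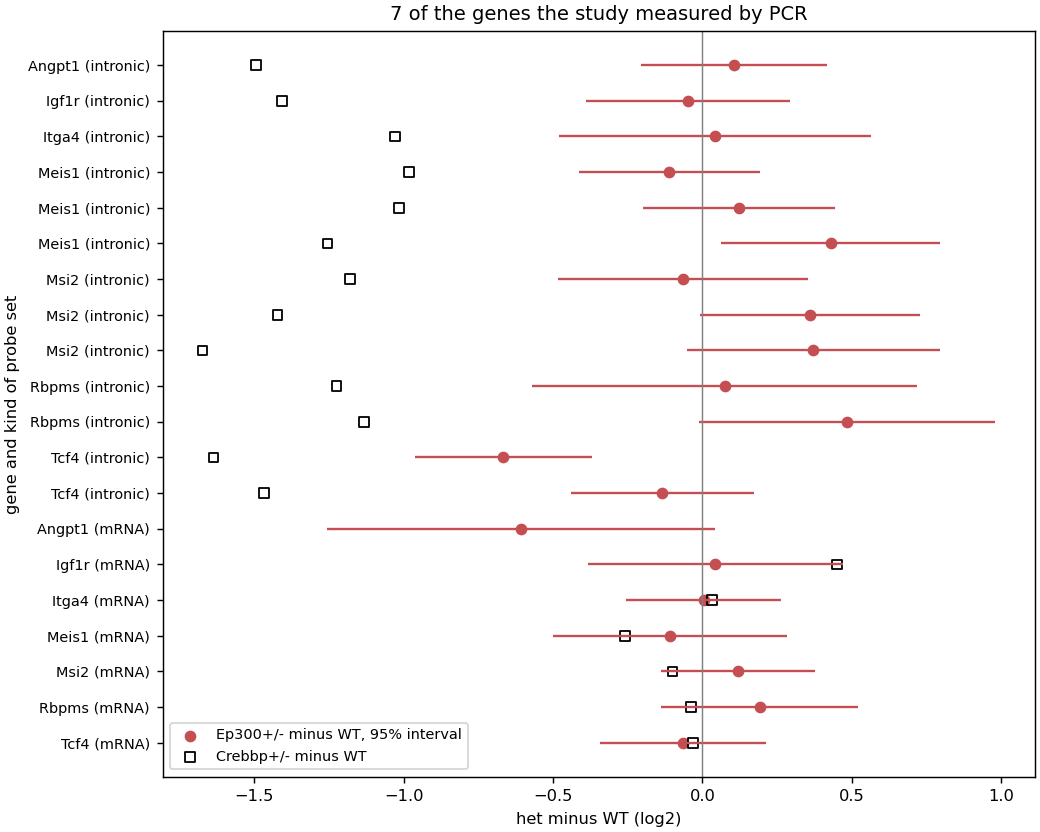
Difference between Ep300+/- and WT pools with its 95% interval (red) at the 13 intronic probe sets and 1 mRNA probe set per gene of 7 genes that the study followed by PCR, and the difference between Crebbp+/- and WT pools at the same probe set (open squares), log2. The Crebbp value lies left of the Ep300 interval at all 13 intronic probe sets, and at the plotted mRNA probe sets with both values it lies within the interval.

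The difference between the Ep300 and the Crebbp effect was itself tested in the joint fit. limma called 0 of 12097 probe sets (0%), with a smallest adjusted p of 0.111, while 1124 (9.29%) had an unadjusted p under 0.05 and a difference over 1.5-fold, 516 with the Ep300 effect higher (4.27%) and 608 with it lower (5.03%). At an unadjusted p under 0.05 alone, the Ep300 effect was higher at 6.21% and lower at 9.31% of probe sets. With a prior variance that follows the level, 77 were called. At the 13 intronic probe sets of the PCR genes the effects differed by 0.87 to 2.05, with adjusted p from 0.123 to 0.213. The probe sets of Rtn4 (0.68 for Ep300, -1.17 for Crebbp) and Gpt2 (-0.75 and 1.71) were among those with opposite signs, with a limma adjusted p of 0.123 each. Both were named for their Ep300 differences and stand in lists that the study chose on the Crebbp samples. Wide gaps between the effects were therefore favoured by the choice. The study's mRNA lists had medians near 0 in Ep300+/- cells: -0.04 over the 35 measured that the study selected as lower in Crebbp+/- cells, whose median there was -0.81, and -0.002 over the 51 selected as higher, whose median there was 0.75. The study chose these lists on the Crebbp samples, so the Crebbp medians are not independent evidence.

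Gene groups around p300 were described by their members, 1 probe set per gene outside the study's intronic probe sets, and none held a called member. Of 20 acetyltransferases and their partners 17 were measured, 6 higher and 11 lower with a median of -0.06, and 0 had an unadjusted p under 0.05 (4.48% of all probe sets did). Their differences ran from -0.22 (standard error 0.13) for Kat2a, the acetyltransferase of the SAGA complex, to 0.22 (standard error 0.11) for Msl1, a partner of the acetyltransferase MOF. Of the measured members 14 of 17 had intervals within 1.5-fold. The 12 measured deacetylases had a median of -0.04, from -0.32 (Hdac7) to 0.25 (Hdac2). The 22 measured transcription factors that recruit p300 had a median of 0.11, with 13 higher, and Irf1, a factor of the interferon response, was the only one with an unadjusted p under 0.05: 8.15 and 8.21 in WT and 8.53 and 8.56 in Ep300+/- pools (0.36, standard error 0.12). Without the array that stood apart the median of that list was -0.005. Among chromatin modifiers, 32 measured with a median of 0.02, Smarca2, an ATPase of SWI/SNF, had 9.46 and 9.35 against 9.85 and 9.70. Its difference was 0.37 (standard error 0.10), and 0.27 without the array that stood apart.

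The 25 measured stem cell regulators had a median of -0.03, from -0.23 (Gfi1b, -0.14 without the array that stood apart) to 0.25 (Kit), and 0 with an unadjusted p under 0.05. Gata2, Runx1, Lmo2 and Bmi1, transcription and chromatin factors of stem cells, differed by 0.02, 0.22, -0.03 and 0.01. Integrins and adhesion molecules had a median of 0.03 over 11 measured. Itgb1, the integrin beta 1 chain, had 9.38 and 9.12 in WT and 9.03 and 8.78 in Ep300+/- pools. Its difference was -0.35 (standard error 0.11), and -0.24 without the array that stood apart. Of 24 megakaryocyte genes only 5 were measured, with a median of -0.34: Gp9, a subunit of the von Willebrand factor receptor, differed by -0.44, Selp, P-selectin, by -0.35, Cd9, a tetraspanin, by -0.34, Nfe2, a factor of platelet formation, by -0.18 and Rab27b, a GTPase of granule release, by 0.43, with -0.09 in pair 1 and 0.96 in pair 2. Gp9 and Selp had an unadjusted p under 0.05, and without the array that stood apart the median was -0.21, with Selp at -0.59, Cd9 at -0.21 and Rab27b at 0.14. Selp had 7.02 and 5.43 in WT and 6.71 and 5.03 in Ep300+/- pools, so that it separated pools numbered 1 from pools numbered 2 by more than it did the genotypes. Pf4, Itga2b, Gp5 and Ppbp, defining markers of megakaryocytes, were below the minimum, between 2.25 and 4.50 in every pool.

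Lineage lists of other cells had few measured members. Erythroid genes had 6 measured of 26 (median 0.04), macrophage genes 1 of 16, lymphoid genes 8 of 25 (-0.03), fetal hepatocyte genes 3 of 20 (-0.10), and endothelial and stromal genes 6 of 23 (-0.055), the last with Col4a1, a basement membrane collagen, at 7.72 and 6.15 in WT and 7.47 and 5.91 in Ep300+/- pools. Pdgfrb, a receptor of platelet-derived growth factor, had the widest difference of that list, -0.61 (standard error 0.40), from 5.28 and 6.72 in WT and 5.45 and 5.32 in Ep300+/- pools. The summed level of the 19 hepatocyte genes on the array was 10.50 to 11.21 on the WT arrays and 10.47 to 11.04 on the Ep300+/- arrays, on the log2 scale, so its ranges overlap between the genotypes. Granulocyte and monocyte genes had 16 measured, 4 higher and 12 lower, with a median of -0.07, and Cst7, a cystatin, had an unadjusted p under 0.05 (0.31, standard error 0.11).

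Signalling, cell cycle and RNA processing genes gave similar values. The 38 measured cell cycle genes had a median of 0.008, from -0.21 (Cdkn1b, a CDK inhibitor, -0.36 without the array that stood apart) to 0.31 (E2f1, a factor of the G1/S transition, 0.12 without it), and 35 of their intervals lay within 1.5-fold. The 43 measured splicing and 3' end processing genes had a median of -0.01, 21 higher and 22 lower; besides Cwc25 the widest difference was that of Cpsf1, a cleavage and polyadenylation factor, at -0.30 (standard error 0.12). The 9 nuclear long noncoding RNAs had a median of -0.01, with Meg3 at -0.27. Targets of p53 (13 measured, 0.02), of hypoxia (17, 0.006), of cAMP and the immediate early response (20, 0.02) and of interferon and NF-kB (17, -0.04) and genes of the Notch, Wnt and TGF-beta pathways (18, -0.005) had 1 member between them with an unadjusted p under 0.05, Irf1. The 21 cytokine receptors and signalling genes had a median of 0.07, 15 higher and 6 lower, with Socs2, a suppressor of cytokine signals, at 7.85 and 7.11 in WT and 8.40 and 7.29 in Ep300+/- pools (0.36, and 0.16 without the array that stood apart). Among 11 imprinted genes (-0.04), Mest had 6.67 and 6.84 against 6.33 and 6.28 (-0.45, standard error 0.12). Heat shock and stress genes (14, -0.05), mast cell and basophil genes (4, 0.02) and genes of the sort gate (4, 0.006) had 0.

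**Figure D5:**
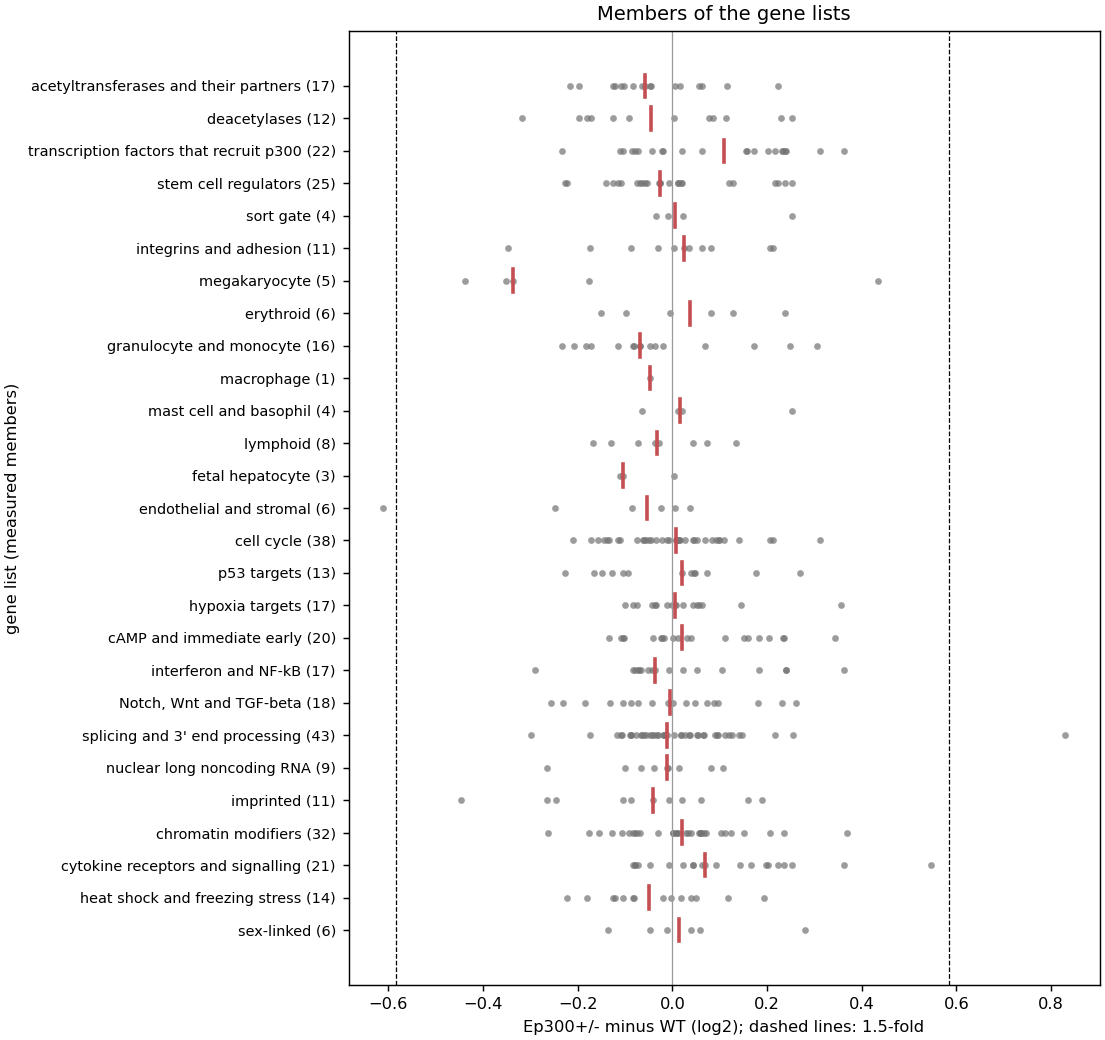
Difference between Ep300+/- and WT pools (log2) of each measured member of the gene lists (grey points, 1 probe set per gene) with the median of the list (red bar), the number measured in brackets and dashed lines at 1.5-fold. The medians lie between -0.34 (megakaryocyte, 5 members) and 0.11 (transcription factors that recruit p300), and 2 members lie past 1.5-fold, Cwc25 in the splicing list and Pdgfrb in the endothelial and stromal list.

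Of 2 Y-linked transcripts, Eif2s3y differed more between arrays than between genotypes, and Kdm5d did not do so throughout. Eif2s3y, on the Y chromosome, had levels of 9.48, 10.39, 10.11 and 8.08 on the first and second arrays of WT pools 1 and 2 and of 9.57, 10.19, 9.69 and 8.06 on the same arrays of the Ep300+/- pools. Its order over the arrays was the same in both genotypes, highest on the second array of pool 1 and lowest on the second of pool 2. Kdm5d, also on the Y chromosome, had pool levels of 8.26 and 7.44 in WT and 8.27 and 7.99 in Ep300+/- cells. Its arrays, in the same order, had 8.005, 8.512, 7.904 and 6.979 in WT and 7.798, 8.744, 8.165 and 7.811 in Ep300+/- cells. Both genotypes had their highest value on the second array of pool 1, but their lowest on different arrays. In pair 2 its genotypes differed by 0.55. The mix of male and female embryos in a pool was not given in the sources used here.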

How the data were processed

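Values were the deposited log2 intensities of Affymetrix Mouse 430 2.0 arrays, which the authors computed with GCRMA, separately for each group of arrays, so levels were compared within the Ep300 arrays and other experiments entered only as differences. The version of GCRMA was not given in the sources used here. Of 45101 probe sets, 64 controls were left out. Both arrays of a pool were averaged, as the methods describe, and 12885 probe sets whose highest pool reached an intensity of 100 were tested. Gene names came from the platform annotation: 11439 probe sets had 1 symbol, 405 several and 1041 none.

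limma 3.58.1 (R 4.3.3) was fitted to the Ep300 and Crebbp pools together, with 1 block for each of 4 pairs, 2 residual and 2.95 prior degrees of freedom, and Benjamini-Hochberg adjustment over all probe sets tested. A call needed a difference over 1.5-fold whose adjusted p was under 0.05. The paired test of the methods, which asks for an unadjusted p under 0.05, that fold change and an interquartile range of at least 0.5, was run as an alternative; the detection calls that the methods also filter on were not used here. The methods name a paired test but not which pools form a pair; pools were paired by the sample number on the labels. The difference between pools 1 and 2 in WT went along with that in Ep300+/- cells (r = 0.384 across probe sets). Nothing was given on whether WT and heterozygous pools of a number shared litters. The scripts were tested on simulated data, and tables and figures were made with Python 3.11.15, pandas 2.3.3 and matplotlib 3.10.9.

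The probe sets described were the 12 with the smallest p in each direction among those over 1.5-fold with 1 symbol, the same sign in both pairs and a mean level at the minimum (35 higher and 21 lower), those passing the paired test of the methods, Ep300 and Crebbp, 7 of the genes followed by PCR, and in each gene list the member with the smallest p in either direction; genes named outside this rule were chosen after their values were seen. A list was described by 1 probe set per gene. The members and lists were chosen with earlier results of these data known. From the study's supplementary probe set lists only the membership was used, not the values.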

Additional observations from a re-analysis of the deposited data

How the results depend on the processing

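The count of called probe sets was 0 under every alternative run, with and without the replicate block. The count at an unadjusted p under 0.05 and over 1.5-fold, 100 with the pairs as blocks, was 42 without the replicate block, 227 without a filter on level, 62 where the mean of the pools had to reach the minimum, 271 and 342 with the first and with the second arrays alone, 188 to 302 when either pair was left out, and 11 by the paired test of the methods. It was 112 with the replicate block on the Ep300 pools alone. Chosen after seeing the data, a block for each of 4 array pairs with the same numbers gave 99, and Ep300+/- pool 2 by its first array alone gave 127. For the difference between the Ep300 and Crebbp effects, a prior variance following the level called 77 and the other alternatives 0. The causes were not tested.

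The 24 probe sets with the smallest p were chosen over 1.5-fold and with the same sign in both pairs. That choice left little room for a change of sign, so its absence there is no support. Of 686 values of 54 named probe sets under the alternatives, 25 changed sign, none of them among those 24. On the second arrays alone these were Crebbp at -0.0945 and 0.0595, Ep300 at 0.0585, the mRNA probe sets of Msi2 (-0.0175), Itga4 (-0.0645) and Igf1r (-0.098) and the intronic ones of Tcf4 (0.03) and Rbpms (-0.236). On the first arrays alone they were Crebbp at 0.0875 and the intronic probe sets of Msi2 (0.0165), Itga4 (-0.0765), Meis1 (0.1325) and Igf1r (0.3055). With the first array of Ep300+/- pool 2 alone they were intronic Angpt1 (-0.113), intronic Meis1 (0.109) and Igf1r mRNA (-0.0363). Leaving out pair 1 or pair 2 gave -0.1525 and 0.372 or -0.154 and 0.027 at the Crebbp probe sets, -0.155 and 0.025 at Tcf4 mRNA, 0.0485 and -0.04 at Itga4 mRNA, -0.315 and 0.1855 at an intronic probe set of Msi2, -0.434 and 0.5825 at one of Rbpms, -0.2515 and 0.0285 and 0.285 and -0.0385 at those of Meis1, and -0.1935 and 0.0965 at that of Igf1r. Of 430 list medians under the alternatives, 76 moved by more than the spread between pairs, within -0.34 to 0.21.

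With 2 pairs, 53.05% of the dimmer probe sets had an interval within 1.5-fold, so smaller changes, and changes of dim transcripts, were often not detectable. Whether the arrays of a pool came from 1 RNA was not tested.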
